A study of Mus musculus with 6 samples.

Results

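Nppb-positive keratinocytes are epidermal cells of mouse dorsal skin that carry transcripts of Nppb, the gene of B-type natriuretic peptide. They were picked from single-cell RNA profiles by raw counts of unique molecular identifiers (UMIs, 1 per captured transcript). A member had at least 2 Nppb UMIs and at least 10 UMIs of the basal keratins Krt5 and Krt14 together. It also had fewer than 2 UMIs of Epgn, fewer than 3 of the cycling genes Mki67, Top2a and Cdk1 together, and fewer than 5 of the fibroblast genes Col1a1, Col1a2, Col3a1 and Dcn together. The rule found 1189 members among 34834 cells (3.41%), and among 9969 keratinocytes that met the same conditions with any Nppb count (11.9%). Nppb and the other genes that the rule reads were left out of the gene-wise tests. Between treatments, the share of cells that the rule finds and the level of Nppb over all keratinocytes were compared across libraries.

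The dorsal skin was taken from wild-type male mice of the inbred strain C57BL/6, aged 8, 26 or 52 weeks. Untreated skin gave 1 library per age. Skin exposed ex vivo to PBMC-sec, the secretome of peripheral blood mononuclear cells that had been gamma-irradiated, gave another. Every library pooled 3 animals, so the 6 libraries, and not the cells, are the replicates of every test below. Treated skin was held outside the body before dissociation and untreated skin was not, so PBMC-sec and that holding time cannot be told apart. Whether both libraries of an age share animals is not stated in the labels, and neither are the treatment's dose and length. P-values therefore measure the spread between pooled libraries.

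B-type natriuretic peptide is best known as a hormone of the heart. It binds the receptor guanylyl cyclase Npr1, which makes cyclic GMP, and is cleared by Npr3. In skin the epidermis renews from basal cells anchored to laminin by integrins. Cells that leave the basal layer switch from Krt5 and Krt14 to Krt1 and Krt10, whereas cells at a wound edge make laminin, integrin alpha 2 and alpha 5, plasminogen activators and matrix metalloproteinases.

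The promoters of 4 genes are printed because Nppb defines the cells, Cldn4 came with their definition, and Mmp13 and Mmp10 were among the genes with the largest differences from other keratinocytes. Each run is the 250 bases before the RefSeq transcript start on GRCm38.p6, read 5′ to 3′ on the gene's strand, and the capitals mark matches to 1 motif. In Nppb the capitals mark GGAATG, the core of the motif bound by TEAD factors, 105 bases before the start. In the other promoters they mark TGANTCA, the motif bound by AP-1 dimers, at 240 and 158 bases before the start in Cldn4, 35 in Mmp13 and 63 in Mmp10. 
Nppb, chr4:147985650-147985899, plus strand: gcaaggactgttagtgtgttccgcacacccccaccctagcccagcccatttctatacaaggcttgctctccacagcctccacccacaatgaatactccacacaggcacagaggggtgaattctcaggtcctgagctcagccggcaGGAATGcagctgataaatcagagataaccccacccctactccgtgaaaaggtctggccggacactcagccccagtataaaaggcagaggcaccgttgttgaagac
Cldn4, chr5:134946935-134947184, minus strand: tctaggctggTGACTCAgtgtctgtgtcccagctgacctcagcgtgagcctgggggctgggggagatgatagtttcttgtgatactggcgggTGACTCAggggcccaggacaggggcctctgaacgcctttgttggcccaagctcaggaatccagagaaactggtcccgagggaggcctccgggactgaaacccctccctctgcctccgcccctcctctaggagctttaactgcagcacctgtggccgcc
Mmp13, chr9:7272264-7272513, plus strand: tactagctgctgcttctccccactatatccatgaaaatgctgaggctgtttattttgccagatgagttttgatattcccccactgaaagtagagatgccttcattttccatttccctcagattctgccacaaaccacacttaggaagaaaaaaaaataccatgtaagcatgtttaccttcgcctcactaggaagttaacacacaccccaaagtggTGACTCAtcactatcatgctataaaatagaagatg
Mmp10, chr9:7502092-7502341, plus strand: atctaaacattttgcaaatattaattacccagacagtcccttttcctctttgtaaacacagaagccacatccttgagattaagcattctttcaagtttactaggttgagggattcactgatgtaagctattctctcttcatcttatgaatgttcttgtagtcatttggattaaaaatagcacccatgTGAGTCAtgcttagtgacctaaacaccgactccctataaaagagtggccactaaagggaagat
Both strands were searched over windows of 250 bases before to 50 bases after the start. TGANTCA was present in 2565 of the 32851 promoter windows of the RefSeq table (7.81%) and GGAATG in 4817 (14.7%), and neither motif overlaps the other. The Nppb window held no TGANTCA. Of the 16 genes that the naming rule picked as higher in Nppb-positive cells, 11 were in the table, and 5 of those held TGANTCA: Mmp10, Mmp13, Mmp3, Plaur and Plet1. The 8 genes named as lower had 5 entries, of which 0 held it. GGAATG was present in 1 of the 11 (Ifi202b) and in 2 of the 5 (Calm4 and Pdcd4). Mmp13, Mmp3 and Mmp10 are metalloproteinase genes that lie close together on chromosome 9 (starts at 7272514, 7445822 and 7502352). Their matches may therefore not be independent. The 16 and 8 genes were picked from these data, and enrichment of either motif was not tested. GENCODE places the start of Nppb (chr4:147985788-147987205, plus strand) inside the printed window, upstream of the RefSeq start and of the marked GGAATG. By that annotation the marked stretch lies after the start.

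The libraries held 3686 to 9237 cells after filtering, with a median of 1128 to 4804 UMIs per cell. In the 8-week untreated library, which had the lowest median depth, 45.7% of cells lay in clusters of low UMI dispersion (at most 2 times the Poisson variance). In the other libraries it was at most 3.57%, and the part of depth in this was not tested. Of the members, 61 lay in such clusters, 17 of them in the 8-week untreated library. The median member of that library had 5295.5 UMIs with them and 7099 without them. Across libraries 690 barcodes occurred more than once among 34136, none of them carried by members of 2 libraries. Members were deeper than the average keratinocyte, with a library median of 5295.5 to 8657 UMIs. Every comparison with other keratinocytes therefore used, from the same library, as many cells without any Nppb UMI, each chosen as the nearest in total UMIs (5296 to 8643 at the median).

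Nppb-positive cells made up a larger share of keratinocytes in every PBMC-sec library than in any untreated one. Their share of keratinocytes in untreated skin was 2.81% at 8 weeks (82 of 2915 cells, 95% exact binomial interval 2.24 to 3.48), 4.95% at 26 weeks (85 of 1718, 3.97 to 6.08) and 4.56% at 52 weeks (36 of 790, 3.21 to 6.25). After PBMC-sec it was 12.6% (230 of 1823, 11.1 to 14.2), 29.2% (529 of 1814, 27.1 to 31.3) and 25.0% (227 of 909, 22.2 to 27.9). The treated and untreated shares did not overlap, and the 8-week treated library was the lowest of the treated ones. The log2 ratio of treated to untreated share was 2.17, 2.56 and 2.45, with a mean of 2.39 ± 0.20 (SD, n = 3 ages). The exact two-sided sign-flip permutation test gave p = 0.25, the smallest that 3 pairs allow, and the intervals cover counting error only.

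**Figure D1:**
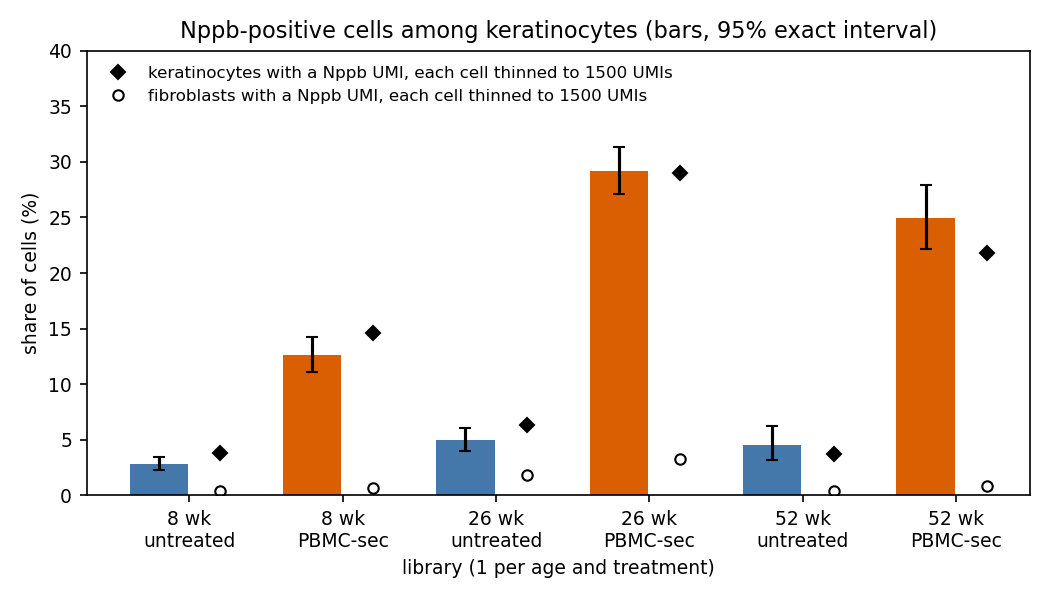
Share of cells (%) in each of the 6 libraries: bars are Nppb-positive cells among keratinocytes with 95% exact intervals, diamonds are keratinocytes with a Nppb UMI after each cell was thinned to 1500 UMIs, and open circles are fibroblasts thinned likewise. The 3 PBMC-sec bars lie between 12.6% and 29.2%, above the untreated bars at 2.81% to 4.95%.

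Depth differed between libraries, so each cell was also thinned to 1500 UMIs, and shallower cells were left out (1169 keratinocytes in the 8-week untreated library, 34 to 189 in the others). The share of keratinocytes with at least 1 Nppb UMI was then 3.78%, 6.29% and 3.73% in untreated skin at 8, 26 and 52 weeks, and 14.6%, 29.0% and 21.8% after PBMC-sec. Fibroblasts, which served as a measure of free Nppb RNA, had 0.360%, 1.82% and 0.378% in untreated skin and 0.656%, 3.23% and 0.858% after PBMC-sec. The keratinocyte share was above the fibroblast share in 6 of 6 libraries. Unthinned, 1.72%, 3.50% and 1.63% of untreated fibroblasts and 3.38%, 7.52% and 3.90% of treated ones had a Nppb UMI, at a median of 2768 to 7666 UMIs per fibroblast against 1925 to 6320 per keratinocyte. Over all keratinocytes of the rule, Nppb was at 54.1, 75.5 and 43.1 CPM (the UMIs of a set of cells, scaled to the same total for every set) in untreated skin and at 233, 708 and 614 CPM in treated skin. Fibroblasts stood between 2.09 and 16.1 CPM.

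Members differed widely in how much Nppb they carried. The median member had 3, 4 and 4 Nppb UMIs in untreated skin at 8, 26 and 52 weeks and 5, 7 and 10 after PBMC-sec, and the highest single cell of the 26-week treated library had 182. Cells with exactly 2 Nppb UMIs, just inside the threshold, were 45.1%, 28.2% and 19.4% of untreated members and 24.8%, 18.1% and 15.0% of treated members. At 8 and 26 weeks the median depth of the treated library's keratinocytes was also the higher one (3930 against 1925 and 5597.5 against 3669 UMIs), and likewise at 52 weeks (6320 against 5044.5). Its part in these unthinned numbers was not tested.

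The condition on Epgn, the EGF receptor ligand epigen, removed many cells. Of the keratinocytes with at least 2 Nppb UMIs, 1034 also had at least 2 Epgn UMIs and so were not members (46.5%). Among keratinocytes without Nppb, 12.2% had that many Epgn UMIs. In each library the share of Epgn-rich cells was higher with Nppb (39.3% to 58.9%) than without it (4.0% to 37.2%). The excluded cells with both genes were deeper than members (median 8788 to 14277 UMIs), and depth was not matched here. A further 12, 18 and 5 cells of the untreated libraries and 14, 98 and 81 of the treated ones had at least 2 Nppb UMIs but fewer than 10 keratin UMIs.

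The label of the cells was checked against Nppb, Cdcp1 and Cldn4, which came with their definition and are therefore given without a test. Cdcp1, a transmembrane protein phosphorylated by Src kinases, was at 259, 474 and 503 CPM in untreated members at 8, 26 and 52 weeks and at 297, 420 and 423 CPM in treated members. Matched keratinocytes without Nppb had 132, 169 and 196 CPM untreated and 172, 190 and 182 CPM treated, so Cdcp1 was higher in members in 6 of 6 libraries with no overlap between the sets. Cldn4, a tight-junction claudin, was at 561, 491 and 482 CPM in untreated members and 367, 1113 and 1245 CPM in treated members. Matched cells had 83.3, 100.2 and 309 CPM untreated and 416, 612 and 882 CPM treated, so Cldn4 was lower in members in the 8-week treated library and higher in the other 5. Keratinocytes with at least 2 Epgn and fewer than 2 Nppb UMIs had more Cldn4 than members in 6 of 6 libraries (574 to 1439 CPM). Cldn4 thus did not single out the members. Cdcp1 was higher in members than in matched cells but did not single them out either. At 8 weeks 51.2% of untreated and 51.3% of treated matched cells had a Cdcp1 UMI, against 64.6% and 78.7% of members.

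Receptors of natriuretic peptides were nearly absent from the members themselves. Over all libraries, their 1189 cells held 16087 Nppb UMIs but only 8 of Npr1, the receptor, 0 of Npr2, 1 of the clearance receptor Npr3, 0 of Prkg1, a cyclic GMP-dependent kinase, and 0 of Corin, the protease that cleaves the related pro-peptide of Nppa. Nppa was at 0 UMIs and Nppc at 7, where a count of 0 allows up to 3 UMIs. The other cyclic GMP-dependent kinase, Prkg2, had 23 UMIs in members and 21 in matched cells, and the cyclic nucleotide phosphodiesterases Pde5a and Pde2a had 14 and 5 in members. Fibroblasts of the same libraries, defined by at least 20 collagen and Dcn UMIs, held 2.30 to 8.43 CPM of Npr1, 4.69 to 16.7 CPM of Npr2 and 0.586 to 12.5 CPM of Npr3 (CPM of the same scale as above). In vascular endothelial cells Npr1 was higher, at 14.7 to 46.1 CPM, whereas Npr2 ranged from 0 to 23.5 CPM and Npr3 from 0 to 6.59 CPM. The endothelial values rest on 52, 17 and 5 UMIs over all libraries. Of the 13 genes of the natriuretic list, only Furin and Ide passed the filter on low counts. Furin, a protease that can cleave pro-BNP, was at 73.0 to 119 CPM in members (log2 difference from matched cells 0.12 ± 0.12 SE, adjusted p = 0.54 by edgeR). Ide, the insulin-degrading enzyme, was lower in members (log2 -1.13 ± 0.17, adjusted p = 0.00099 by edgeR), at 74.3 to 148 CPM against 170 to 362 CPM.

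Against matched keratinocytes, Nppb-positive cells had more RNA of secreted and cell-surface proteins of the wound edge and of inflammation, and less of the keratins and desmosomal genes of differentiating layers. With the library as a block, edgeR's quasi-likelihood test called 1214 of 7149 genes at an adjusted p under 0.05 (17.0%). Of these, 651 were higher in members (9.11%) and 563 lower (7.88%). The matched set held more differentiating cells: 3.53% to 16.7% of its cells per library had at least 10 UMIs of Krt1 and Krt10 together, against 0 to 6.17% of members. With every cell of at least 2 Krt1 and Krt10 UMIs removed from both sets, 581 genes were called, 401 higher and 180 lower, and 542 of them were called in the same direction in the full comparison. All 16 genes that the naming rule picked as higher remained past the threshold there. That rule, also used below against Epgn-positive cells, took only genes that differed the same way in all 6 libraries. Agreement of the 6 libraries in direction was thus fixed in advance for the genes it picked. Without the 8-week treated library 800 genes were called and without the 26-week treated library 539.

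Inhba, a subunit of activins, was at 88.0, 121 and 249 CPM in untreated members at 8, 26 and 52 weeks and at 121, 93.7 and 243 CPM in treated members. In matched cells it was at 15.0, 1.76 and 14.7 CPM untreated and 23.0, 16.7 and 44.1 CPM treated. The 2 sets did not overlap, and the log2 difference was 2.79 ± 0.25 (SE, adjusted p = 2.4e-05 by edgeR). Has2, which makes hyaluronan, differed by 2.70 ± 0.18 (56.4 to 195 CPM against 5.0 to 35.7 CPM).

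Mmp13, a collagenase, was at 1212, 3159 and 4936 CPM in untreated members and at 986, 1362 and 1533 CPM in treated ones. Matched cells had 190, 106 and 842 CPM untreated and 282, 230 and 444 CPM treated (log2 2.64 ± 0.33, adjusted p = 0.00023 by edgeR). The lowest member value was above the highest matched value. Mmp10 (log2 2.60 ± 0.24) and Mmp3 (1.82 ± 0.11), both stromelysins, were also higher in members in 6 of 6 libraries. The urokinase gene Plau (2.43 ± 0.19) and its receptor Plaur (2.35 ± 0.24) were higher together. Itga2, the integrin alpha 2 chain, was higher as well (1.86 ± 0.17).

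Ptgs2, the inducible cyclooxygenase, was at 725, 1125 and 1463 CPM in untreated members and at 2064, 2239 and 2041 CPM in treated ones. Matched cells had 122, 266 and 167 CPM untreated and 618, 623 and 445 CPM treated (log2 2.24 ± 0.16, adjusted p = 9.9e-06 by edgeR). Treated values were above untreated values in both sets, but in members this was not past the threshold (adjusted p = 0.062 by edgeR). Also higher were Clcf1, a cytokine of the IL-6 family (2.45 ± 0.19), Igfbp3, a binding protein of insulin-like growth factors (2.31 ± 0.23), Odc1, the rate-limiting enzyme of polyamine synthesis (2.09 ± 0.23), Rrad, a small GTPase (2.09 ± 0.20), Ifi202b, an interferon-inducible gene of a family of close copies whose reads may be shared (2.08 ± 0.12), and Plet1, a surface protein of the upper hair follicle (2.01 ± 0.19).

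The genes that were lower included the early differentiation keratins. Krt1 was at 120, 35.1 and 16.5 CPM in untreated members and at 84.6, 117 and 198 CPM in treated ones, against 966, 183 and 420 CPM and 724, 731 and 562 CPM in matched cells (log2 -2.72 ± 0.26, adjusted p = 4.1e-05 by edgeR). Krt77 (-2.56 ± 0.34), Krt10 (-2.50 ± 0.27) and the desmosomal cadherin Dsg1a (-2.26 ± 0.20) were lower in 6 of 6 libraries. Pdcd4, an inhibitor of translation (-2.04 ± 0.20), Samhd1, a nucleotide hydrolase (-1.89 ± 0.19), the calcium-binding Calm4 (-1.65 ± 0.30) and H2-Ab1, an MHC class II chain (-1.57 ± 0.19), followed. Once cells of at least 2 Krt1 and Krt10 UMIs were removed, Krt1 (log2 -0.50, adjusted p = 0.12), Krt77 (-1.42, 0.054), Krt10 (-0.40, 0.29) and Calm4 (-0.96, 0.089) were no longer past the threshold of edgeR's test. Removing cells by their Krt1 and Krt10 counts acts on those 2 genes by construction. H2-Ab1 is also a marker of Langerhans and dendritic cells, and the summed level of that marker list was 239 to 471 CPM in members and 300 to 1016 CPM in matched cells, with Cd209a at 0 in members. The part of such cells in the H2-Ab1 difference was not tested.

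**Figure D2:**
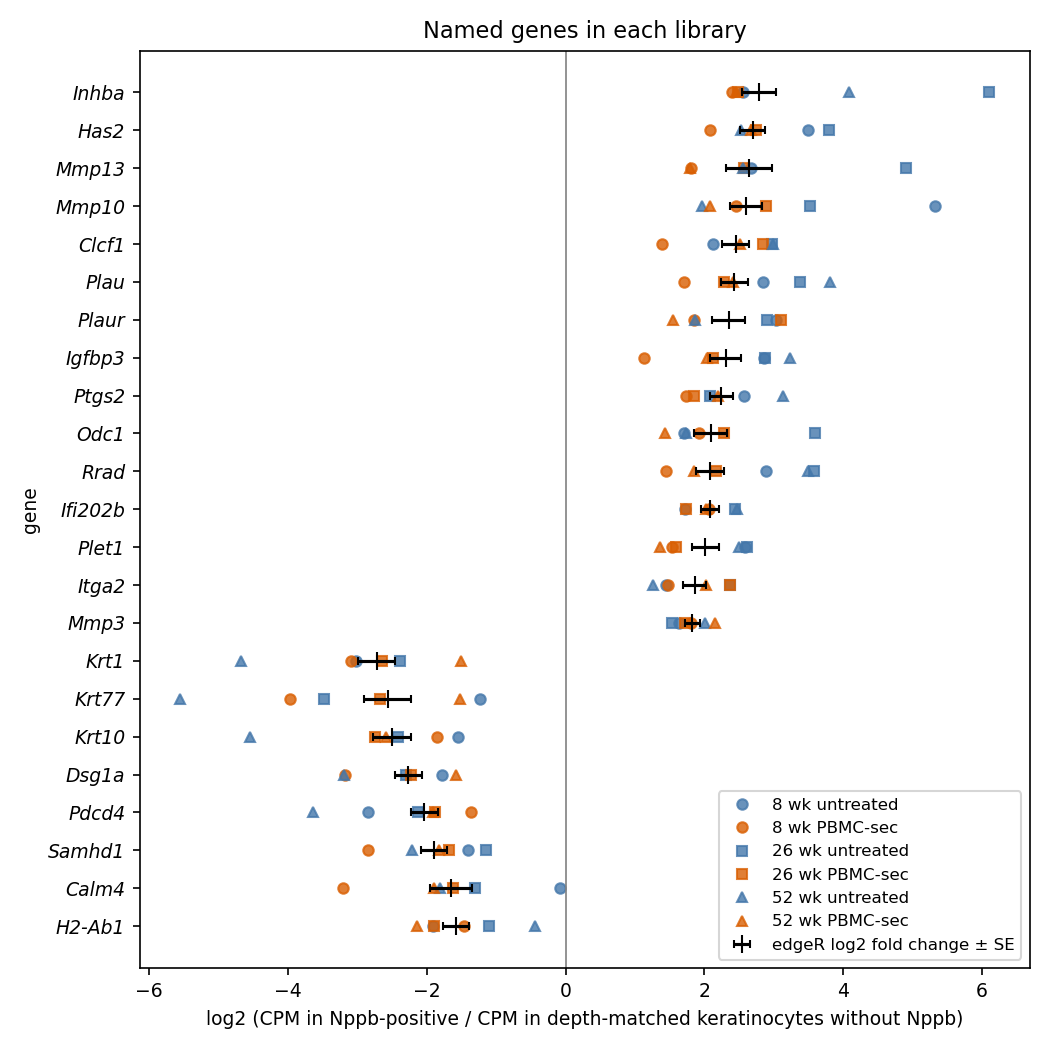
Log2 ratio of CPM in Nppb-positive cells to CPM in matched keratinocytes without Nppb, per library (symbols), for the genes named in the text as higher and the 8 named as lower, with edgeR's log2 fold change ± SE in black. Every library lies on the same side of 0 for each gene, which the naming rule required.

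Markers of other skin cells were compared in the same sets. The fibroblast list summed to 12.8 to 35.3 CPM in members and 12.7 to 39.3 CPM in matched cells, with 0 of its 8 genes higher in members in all libraries. The macrophage list summed to 8.30 to 62.8 CPM against 7.03 to 39.3 CPM, and the vascular endothelial list to 4.98 to 52.0 CPM against 5.44 to 17.7 CPM. The Merkel cell list summed to 7.86 to 226 CPM against 1.76 to 76.1 CPM, with Krt20, Atoh1, Sox2 and Piezo2 at 0 in members. Of its 8 genes, 1 was higher in members in all libraries. The sweat gland or simple epithelium list summed to 433, 300 and 511 CPM in untreated members and 163, 366 and 262 CPM in treated ones. Matched cells had 272, 139 and 270 CPM untreated and 207, 186 and 284 CPM treated. There too 1 of 8 genes was higher in members in all libraries, and Krt19, Aqp5 and Cldn10 were at 0 in members. The neutrophil list summed to 1776, 2073 and 320 CPM in untreated members at 8, 26 and 52 weeks and to 27.8, 74.0 and 461 CPM in treated ones, against 193 to 1935 CPM in matched cells. Nearly all of it was S100a8 and S100a9, which stressed keratinocytes also express. Csf3r, Retnlg, Ly6g and Camp were at 0 in members of all libraries, Mmp8 had 1 UMI, and 0 of the 8 genes were higher or lower in members in all libraries. Myh6 of the muscle list was at 0. The keratinocyte list summed to 15408 to 25853 CPM in members and 16142 to 27005 CPM in matched cells.

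Across the wound-edge list, 26 of 28 genes were tested and 16 were higher in members, with 1 lower. The list's median log2 difference was 1.28, beside 0.000698 over all genes tested. The genes that were higher included those of adhesion and matrix turnover, among them the laminin chains Lama3 (1.68 ± 0.14) and Lamb3 (1.27 ± 0.13), the integrins Itga2, Itga3 (0.69 ± 0.12), Itga5 (2.26 ± 0.24) and Itgb1 (1.29 ± 0.10), Plau, Plaur, Mmp3, Mmp10, Mmp13, Tnc (1.53 ± 0.17), Inhba and the hyaluronan receptor Cd44 (0.85 ± 0.12). The stress keratins of the same list did not follow. Krt6a (log2 0.13 ± 0.22), Krt16 (-0.34 ± 0.33) and Krt17 (-0.09 ± 0.28) were not past the threshold, and Krt6b was lower (-1.88 ± 0.52, adjusted p = 0.028 by edgeR). The Krt6b call was kept in 9 of 17 alternatives (log2 -2.39 to -0.38), and in the 8-week untreated library Krt6b was higher in members (1660 against 778 CPM). Without cells of at least 2 Krt1 and Krt10 UMIs, 15 genes of the list were higher and 0 lower, with a median of 1.01.

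Itga5, a chain of the fibronectin receptor, was at 64.7, 93.0 and 61.2 CPM in untreated members and at 97.3, 100.1 and 127 CPM in treated ones. Matched cells had 11.7, 7.03 and 9.82 CPM untreated and 42.3, 23.9 and 15.8 CPM treated. No matched value reached the lowest member value. Lama3 was at 448, 695 and 696 CPM in untreated members and at 358, 303 and 233 CPM in treated ones, against 122, 151 and 270 CPM and 157, 98.8 and 66.4 CPM in matched cells. Its highest matched value (52-week untreated) lay above its lowest member value (52-week treated), but members were higher within each library.

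Of the epithelial inflammation list, 20 of 29 genes were tested, 8 were higher in members and 1 lower, with a median of 0.68. Il24, a cytokine of the IL-10 family, was at 115, 45.6 and 160 CPM in untreated members and at 58.6, 16.4 and 48.9 CPM in treated ones, against 11.7, 0 and 24.6 CPM and 18.1, 2.63 and 5.26 CPM in matched cells (log2 2.70 ± 0.26, adjusted p = 4.1e-05 by edgeR). Tnf was higher too (2.37 ± 0.30), as were Tslp, an alarmin of epithelia (1.69 ± 0.31), Il1rn (1.38 ± 0.15), the neutrophil attractant Cxcl1 (1.34 ± 0.21), Cxcl16 (1.05 ± 0.11), Il1a (0.99 ± 0.23) and Ptgs2. Tslp stood at 125, 109 and 687 CPM in untreated members and at 1060, 900 and 504 CPM in treated ones, so its order between treatments at 52 weeks was the opposite of that at the other ages. The macrophage growth factor Csf1 was lower (-0.65 ± 0.18, adjusted p = 0.03 by edgeR), but the call was kept in 7 of 16 alternatives (adjusted p up to 0.41), and members were not lower in the 52-week untreated library (9.41 against 7.37 CPM).

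Lists of signalling targets moved less. Of the EGF receptor list 7 of 18 tested genes were higher and 0 lower (median 0.31): the feedback gene Phlda1 (1.78 ± 0.19), the ligands Areg (1.64 ± 0.13), Hbegf (0.95 ± 0.17) and Tgfa (0.51 ± 0.13), the receptor Egfr (0.44 ± 0.11), and the inhibitors Spry2 (1.18 ± 0.25) and Spred2 (0.55 ± 0.16). Of the AP-1 and immediate early list 5 of 23 were higher and 3 lower (median 0.08). Fosl1 (0.86 ± 0.17) and Fosl2 (0.41 ± 0.12), the FOS-related subunits, were higher with Ier3 (1.36 ± 0.17), Klf6 and Egr2, and Egr1 (-0.66 ± 0.13), Ier2 and Myc were lower. Of the YAP and TEAD target list 5 of 14 were higher, among them tissue factor F3 (1.31 ± 0.20) and the matricellular Ccn1 (0.81 ± 0.10), and Amotl2 was lower (-0.80 ± 0.16), with a median of 0.33. Without cells of at least 2 Krt1 and Krt10 UMIs, 4 genes of the EGF receptor list and 2 of the YAP and TEAD list were higher. Over all genes tested there, 401 of 6858 were higher.

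Genes of the differentiation programme were lower as a group: 10 of 20 tested genes were lower and 0 higher, with a median of -0.77. They included Flg, the filaggrin gene (-2.66 ± 0.56), the desmosomal Dsc1 (-2.27 ± 0.25), Krtdap (-1.28 ± 0.26) and Lgals7 (-0.89 ± 0.08). Without cells of at least 2 Krt1 and Krt10 UMIs, 2 of 18 were lower and 2 higher, with a median of -0.23, so most of these calls were not made without those cells. The basal list was mixed, with Thbs1 (1.66 ± 0.24), Itga6 and Itgb4 higher and Krt15 (-1.11 ± 0.19), Wnt4 and Aqp3 lower out of 12. In the hair follicle list 2 genes were higher out of 7, Plet1 and the activin antagonist Fst (1.62 ± 0.26).

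The remaining lists held few calls, apart from the genes that act with Cdcp1. Of those genes, 5 of 8 tested were higher and 0 lower (median 0.46): Src itself (1.01 ± 0.13), Itgb1, Plau, Cdh1 (0.48 ± 0.12) and Egfr. Itgb1 and Plau were also counted in the wound-edge list and Egfr in the EGF receptor list. In the tight junction list 2 of 9 tested genes were higher and 0 lower (median 0.14), among them Cldn1 (0.45 ± 0.12). The calls of Cdh1 and Cldn1 were kept in 12 and 11 of 17 alternatives. Of the p53 list Mdm2, the ubiquitin ligase of p53, was higher (1.41 ± 0.17) and 2 genes were lower out of 13. Of 17 NRF2 targets 4 were higher and 2 lower, of 18 unfolded protein response genes 1 and 1, of 12 heat shock genes 1 and 1, and of 16 glycolysis genes 0 and 1. Over all genes tested against matched cells, 9.11% were higher and 7.88% lower.

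**Figure D3:**
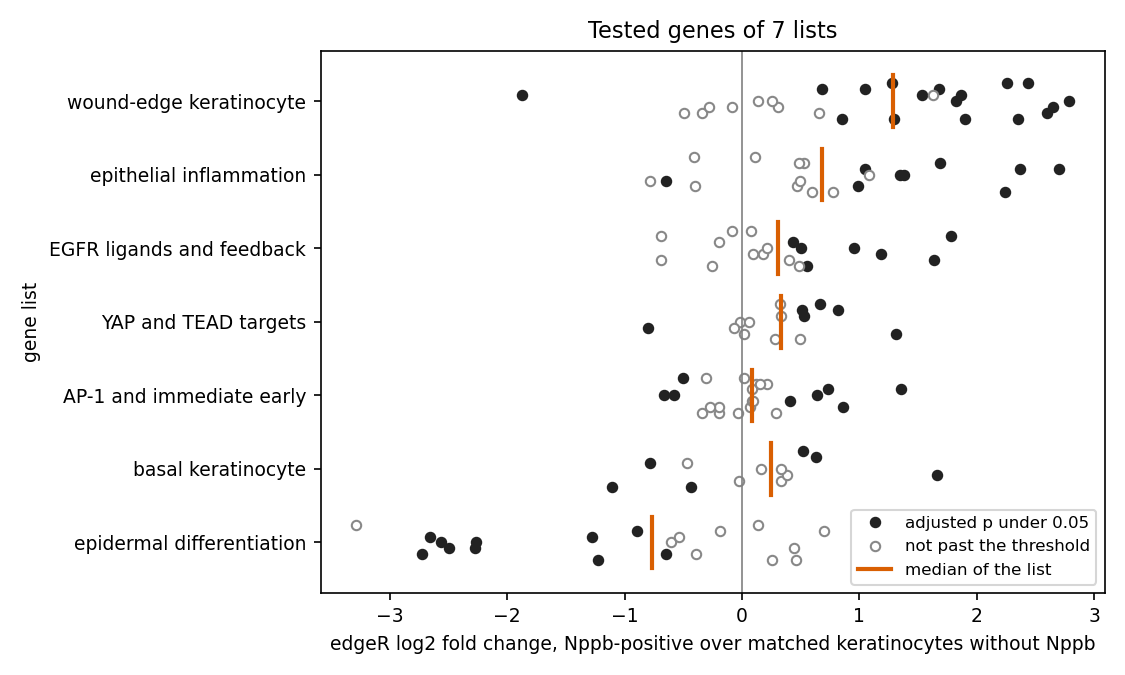
Log2 fold change of each tested gene of 7 lists in Nppb-positive cells against matched keratinocytes (filled: adjusted p under 0.05, open: not past the threshold) with the list's median as a bar. The wound-edge median stands at 1.28 and that of the differentiation list at -0.77.

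Many of these differences were already present in cells with a single Nppb UMI. As a description over the 6 libraries, with the mean CPM of each library weighted equally, Cdcp1 was at 173 ± 23.0 (SD) in the 1189 matched cells without Nppb, 359 ± 116 in 744 keratinocytes with exactly 1 UMI, 375 ± 122 in 255 members with 2, 383 ± 134 in 245 members with 3 to 4 and 401 ± 82.8 in 689 members with 5 or more. Inhba likewise stood at 19.2 CPM without Nppb and at 156, 137, 124 and 166 CPM in the 4 other classes. The threshold of 2 UMIs therefore did not separate cells with these genes from cells without them. Other genes were higher with more Nppb: Plet1 stood at 285, 614, 700, 941 and 1256 CPM and Odc1 at 81.9, 141, 182, 232 and 497 CPM. Krt1 stood at 598, 273, 73.5, 67.0 and 94.4 CPM. Median depth also differed between these classes, from 1487.5 to 6421 UMIs per library with 1 Nppb UMI and from 6487 to 10724 with 5 or more, and the treated libraries held most of the members with 5 or more. Their part in the steps was not tested.

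**Figure D4:**
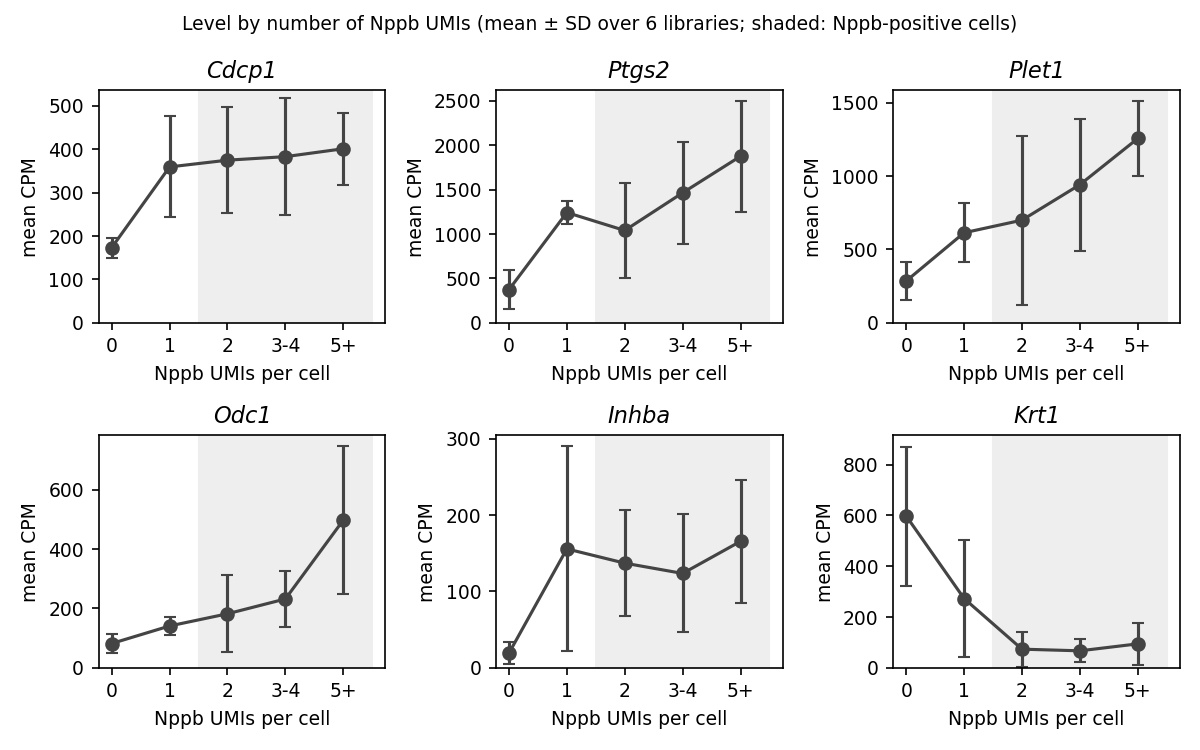
Mean CPM ± SD over the 6 libraries of 6 genes in keratinocytes grouped by their number of Nppb UMIs (horizontal axis), with the classes inside the membership rule shaded. Cdcp1 and Inhba change between 0 and 1 UMI, from 173 to 359 CPM and from 19.2 to 156 CPM, whereas Odc1 is at 497 CPM in cells with 5 or more UMIs.

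The 1034 cells with at least 2 Nppb and at least 2 Epgn UMIs, which the rule leaves out, had 308 CPM of Cdcp1, 1108 CPM of Cldn4, 229 CPM of Inhba and 2665 CPM of Mmp13. Values of Krt1 (77.5 CPM) and Dsg1a (37.5 CPM) were below those of the matched cells without Nppb (598 and 116 CPM). The Epgn condition thus set aside cells whose levels of these genes were nearer to the members than to the matched cells.

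Members were also compared with 1351 Epgn-positive keratinocytes, which had at least 2 Epgn UMIs and fewer than 2 Nppb UMIs (1121 of them 0 and 230 of them 1). Against them edgeR called 1297 of 7879 genes (16.5%), 521 higher in Nppb-positive cells (6.61%) and 776 lower (9.85%). The Epgn-positive cells were deeper in 6 of 6 libraries (median 7208 to 10279 UMIs), and with every cell thinned to 1500 UMIs 228 of 3245 genes were called. Mmp13 was again among the largest differences (log2 1.92 ± 0.21, adjusted p = 8.8e-05 by edgeR), at 856, 497 and 1060 CPM in untreated Epgn-positive cells and 269, 352 and 305 CPM in treated ones. Cxcl1 (1.84 ± 0.25), Inhba (1.59 ± 0.18), Has2 (1.49 ± 0.19), the matrix protein gene Thbs1 (1.43 ± 0.18), Plau (1.37 ± 0.14), Odc1 (1.37 ± 0.15) and Rrad (1.34 ± 0.14) were also higher in Nppb-positive cells.

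The 8 genes named as lower than in Epgn-positive cells include hornerin, loricrin and filaggrin, proteins of the granular and cornified layers. Hrnr, the hornerin gene (-4.22 ± 0.40), Krt77 (-4.20 ± 0.30), Nccrp1 (-3.92 ± 0.35), Lypd5 (-3.66 ± 0.22), Lor, the loricrin gene (-3.60 ± 0.61), Flg (-3.42 ± 0.32), Dsc1 (-3.17 ± 0.31) and the kallikrein protease Klk5 (-3.12 ± 0.27) were lower in 6 of 6 libraries. Lypd5 was at 31.5, 33.3 and 25.9 CPM in untreated members and 18.1, 9.25 and 29.2 CPM in treated ones, against 195 to 506 CPM in Epgn-positive cells. Of the differentiation list 17 of 20 tested genes were lower and 0 higher (median -1.23), and of the wound-edge list 16 of 26 were higher and 6 lower (median 0.78). Other lists also held lower genes: 6 of 18 of the unfolded protein response (0 higher), 5 of 17 NRF2 targets (3 higher) and 4 of 24 of the AP-1 list (1 higher). Without cells of at least 2 Krt1 and Krt10 UMIs, 141 genes were called, 86 higher and 55 lower, of which 136 were called in the same direction with them. All 8 genes named as higher were among the calls there, and 8 genes of the wound-edge list were higher and 1 lower. Of the 8 named as lower, Nccrp1, Lypd5 and Dsc1 remained past the threshold. Krt77 (log2 -1.61, adjusted p = 0.13), Lor (-1.04, 0.72), Flg (-2.01, 0.11) and Klk5 (-0.47, 0.76) were not past it by edgeR, and Hrnr was not tested there.

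Within Nppb-positive cells, treated and untreated skin were compared across the 3 ages with age as a covariate, which leaves 2 residual degrees of freedom. PBMC-sec members had less RNA of the gap junction genes Gjb2 and Gjb6 and of the gelatinase Mmp9, which was detected in a minority of untreated members, and more of the aldose reductase gene Akr1b3 and of Mdm2. Gjb2, Gjb6, Akr1b3 and Mdm2 moved the same way in matched cells without Nppb at each age. EdgeR called 122 of 7183 genes (1.70%), 51 higher after PBMC-sec (0.710%) and 71 lower (0.988%). When the Epgn condition was dropped, which enlarged both the untreated sets (to 79 to 144 cells per library) and the treated ones (to 421 to 892), 1383 genes were called, 657 higher and 726 lower, and 121 of the 122 were among them in the same direction. Without the 8-week pair 209 genes were called, and without the 52-week pair 232.

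Mmp9 was at 813, 1013 and 743 CPM in untreated members at 8, 26 and 52 weeks and at 16.3, 6.17 and 12.2 CPM after PBMC-sec (log2 -6.15 ± 0.40, adjusted p = 1.9e-05 by edgeR). The untreated values were all above the treated ones, but few cells gave them. In untreated skin 33 of 82, 11 of 85 and 6 of 36 members had a Mmp9 UMI, and 3 cells held 53.9%, 61.2% and 87.0% of the Mmp9 UMIs. After PBMC-sec 4 of 230, 5 of 529 and 4 of 227 members had one. The neutrophil list, given above, was also lower after PBMC-sec at 8 and 26 weeks and higher at 52 weeks, and its part in the Mmp9 difference was not tested. Matched cells without Nppb had 9.99, 1.76 and 435 CPM untreated and 35.1, 0.239 and 111 CPM treated, so in matched cells Mmp9 was at 111 CPM or more only in the 52-week libraries. Those 52-week values rest on few cells too, as 2 of 36 untreated and 3 of 227 treated matched cells had a Mmp9 UMI. A single cell held 98.3% of these UMIs in the untreated set and 97.1% in the treated one. Gjb2, connexin 26, fell from 1884, 1021 and 1936 CPM to 125, 148 and 157 CPM (-3.29 ± 0.31, adjusted p = 0.00032 by edgeR). Gjb6, connexin 30, fell from 232, 223 and 221 CPM to 8.46, 4.27 and 12.6 CPM (-4.68 ± 0.34). In matched cells Gjb2 went from 843, 906 and 1383 CPM to 409, 363 and 561 CPM. Gjb6 went there from 33.3, 113 and 138 CPM to 15.7, 14.1 and 26.3 CPM. Gjb2 was found in 64 of 82, 48 of 85 and 29 of 36 untreated members and in 49 of 230, 112 of 529 and 52 of 227 treated ones. Both connexins are raised at wound edges, and with Mmp9 they were the 3 genes called among the 26 tested of the wound-edge list, where 0 were higher (median -0.73, beside 0.00968 over all genes).

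Other genes that fell with PBMC-sec were Isg15, an interferon-induced ubiquitin-like gene (-3.15 ± 0.22), the stefin genes Csta3 (-3.28 ± 0.45) and Csta1 (-2.32 ± 0.45), which have near copies that may share reads, the protease inhibitor Slpi (-2.73 ± 0.62), the retinoid-binding Crabp2 (-2.55 ± 0.46), and the inducible chaperone Hspa1a (-2.17 ± 0.24). Hspa1a and its near-identical copy Hspa1b (-1.90 ± 0.24) fell together, and their reads can be split between them. Hspa1a was at 805, 614 and 936 CPM untreated and at 169, 125 and 179 CPM treated, and matched cells went from 555, 950 and 990 CPM to 274, 260 and 330 CPM. Slpi was just past the threshold (adjusted p = 0.049 by edgeR) and its call was kept in 8 of 13 alternatives. A single cell held 57.4%, 33.7% and 67.6% of the Slpi UMIs of the untreated members, and the neutrophil list moved the same way at 8 and 26 weeks. Crabp2 was found in 23 of 82, 15 of 85 and 7 of 36 untreated members. It was found in 31 of 230, 91 of 529 and 38 of 227 treated ones. Of the Crabp2 UMIs of untreated members, 3 cells held 62.7%, 69.3% and 94.7%. For Csta1, 3 cells held 60.3%, 48.1% and 64.3%. Isg15 and Slpi were more than 5 times as high in cells with fewer than 10 keratin UMIs as in members in 3 and 2 of the libraries, and the part of free RNA in their values was not tested.

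Akr1b3 rose from 34.9, 47.4 and 49.4 CPM to 542, 263 and 379 CPM (3.26 ± 0.30, adjusted p = 0.00022 by edgeR). Matched cells went from 21.7, 19.3 and 31.9 CPM to 586, 263 and 248 CPM, and the interaction described below did not pass for Akr1b3 (difference -0.74 ± 0.29, adjusted p = 0.36 by edgeR). S100a4 (3.22 ± 0.32), Igfbp7 (2.79 ± 0.37), Cbr2, a carbonyl reductase (2.45 ± 0.32), Tnxb (2.09 ± 0.34), the glutathione peroxidase Gpx2 (1.90 ± 0.37), Hs3st1 (1.73 ± 0.38), Mdm2 (1.72 ± 0.32) and Pmp22 (1.66 ± 0.22) also rose. Mdm2 went from 94.6, 128 and 120 CPM to 160, 498 and 471 CPM, with the smallest difference at 8 weeks. In matched cells Mdm2 went from 45.0, 40.4 and 71.2 CPM to 88.9, 134 and 130 CPM. S100a4, Igfbp7, Cbr2, Tnxb, Gpx2, Hs3st1 and Pmp22 were also higher after PBMC-sec in matched cells at each age. S100a4 and Igfbp7 are abundant in fibroblasts (268 to 691 and 284 to 1217 CPM), and S100a4 was more than 5 times as high in cells of low keratin as in members in 3 libraries and Igfbp7 in 1. Cbr2 stood at 277 to 735 CPM in treated members and at 0.418 to 11.2 CPM in fibroblasts. The calls of Hs3st1 and Gpx2 were kept in 8 and 10 of 13 alternatives.

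**Figure D5:**
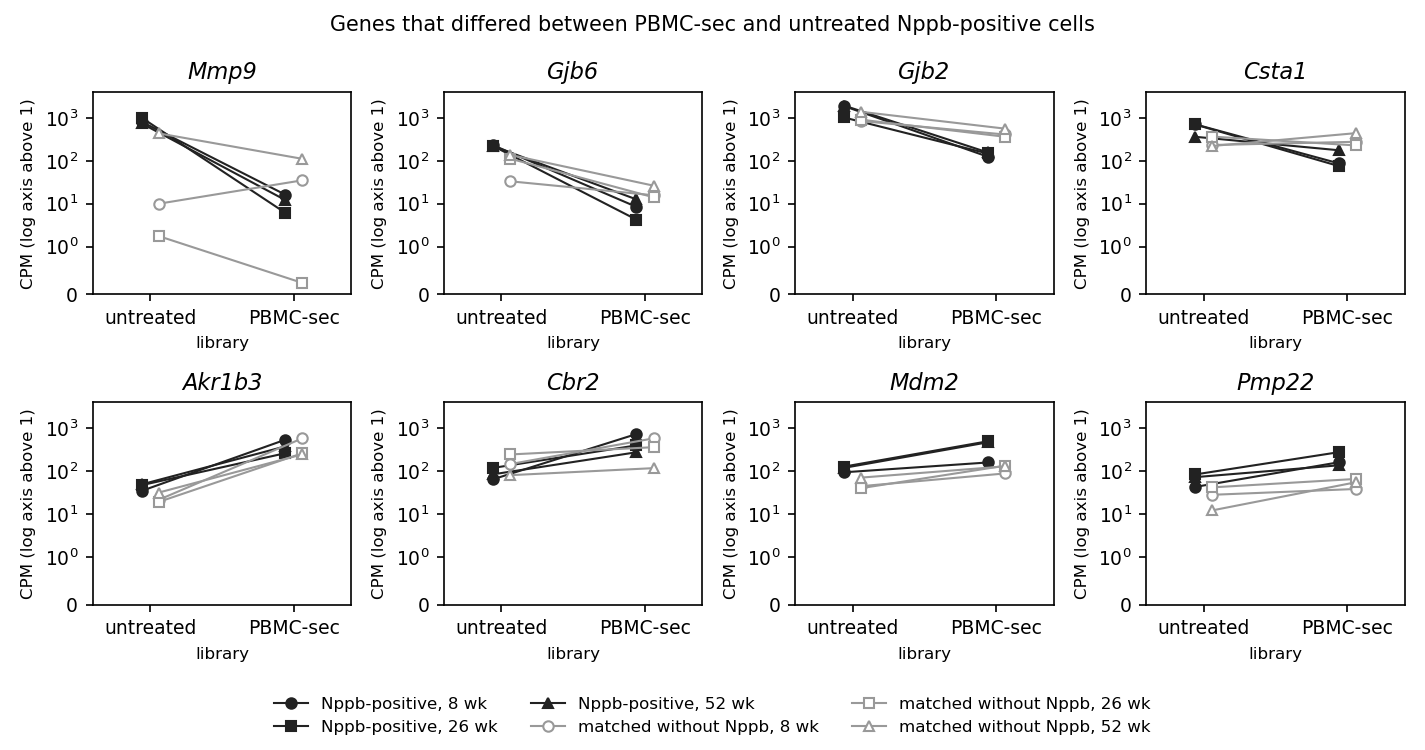
CPM (log axis above 1) of 8 genes in untreated and PBMC-sec libraries at 3 ages, in Nppb-positive cells (filled) and in matched keratinocytes without Nppb (open). Mmp9 and Gjb6 lie at 221 CPM or more in untreated members and at 16.3 CPM or less after PBMC-sec, and Akr1b3 is higher after PBMC-sec in both sets at each age.

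Few genes of the other lists passed this test. Il24 fell (-1.23 ± 0.21), and the ETS factor Etv4 (1.27 ± 0.27), Crim1 (1.36 ± 0.25) and Gclc, of glutathione synthesis (1.48 ± 0.25), rose. The calls of Etv4, Crim1 and Gclc were kept in 7, 9 and 11 of 13 alternatives. None of the differentiation, basal, tight junction, hair follicle, AP-1 or natriuretic genes tested was called.

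The difference of the PBMC-sec effect between members and matched cells was tested as an interaction with 4 residual degrees of freedom. EdgeR called 21 of 8006 genes (0.262%), 2 with a more positive effect in members (0.0250%) and 19 with a more negative one (0.237%). Sult2b1, a sulfotransferase of cholesterol, was at 339, 258 and 301 CPM in untreated members and 48.3, 111 and 102 CPM in treated ones, whereas matched cells went from 58.3, 106 and 44.2 CPM to 114, 140 and 145 CPM (difference of log2 effects -2.82 ± 0.35, adjusted p = 0.0099 by edgeR). Trex2, a keratinocyte exonuclease, differed by -3.43 ± 0.53, Klk13 by -3.53 ± 0.59, Pdk4 by -4.10 ± 0.73 and Sdr9c7, an enzyme of the epidermal barrier, by -4.84 ± 0.85. Itga7 (1.28 ± 0.22) and Arhgdib (1.08 ± 0.19) differed the other way. The calls of Itga7 and Arhgdib were kept in 6 and 7 of 13 alternatives, those of Pdk4 and Klk13 in 6 and 7 of 12 and that of Sdr9c7 in 6 of 11. Gjb2 (-2.25 ± 0.27) and Csta1 (-2.66 ± 0.25) were also called, so their effect was more negative in members than in matched cells. Without cells of at least 2 Krt1 and Krt10 UMIs, 5 genes were called, of which only Ly6d was among the 21, and 1 of the other 4 was Mmp9 (-8.70, adjusted p = 0.023 by edgeR).

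Age was compared as 52 against 8 weeks with treatment as a covariate. EdgeR called 0 of 7719 genes (0%) and DESeq2 0, with 897 genes at an unadjusted p under 0.05. Without the 26-week pair 8 genes were called, 7 higher and 1 lower at 52 weeks, and with no filter on low counts 125. The untreated libraries of these 2 ages held 36 and 82 members.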

How the data were processed

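Dorsal skin cells were profiled by droplet 3′ single-cell RNA sequencing in 6 libraries of 3 pooled mice each. Raw UMI counts of 32285 genes per barcode, not normalised, were deposited as Cell Ranger 5.0.1 wrote them, per the file headers. Per the submitters' processing notes the build was mm10 (GRCm38). Gene positions came from GENCODE vM21 by Ensembl identifier and promoters from RefSeq.

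Barcodes below 500 UMIs or 300 detected genes, or above 10% mitochondrial UMIs, were dropped. Scrublet's automatic threshold gave 0 doublet calls, so doublets were kept in the main analysis. A value of 0 was also recorded where no automatic threshold was set, so it does not show that doublets were absent. An alternative removed the highest scores at 0.8% per 1000 barcodes, which took out 43 members. Clusters of low UMI dispersion (Leiden resolution 5, at least 10 cells, dispersion up to 2) were removed in another alternative. Fibroblasts had at least 20 UMIs of Col1a1, Col1a2, Col3a1 and Dcn, and vascular endothelial cells at least 2 endothelial marker UMIs.

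Counts were summed per library and cell set and tested with edgeR 4.0.16 (quasi-likelihood, TMM, filterByExpr, R 4.3.3), with Benjamini-Hochberg adjustment over all genes tested. DESeq2 1.42.0 was an alternative. The 11 genes of the rule were left out of every test, and Cdcp1 and Cldn4 out of both comparisons of cell sets. The scripts were tested on simulated data with known changes. Cell selection and plots used Python 3.11.15 with scanpy 1.11.5. Shares have exact binomial intervals of 95%.

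Named genes were the 16 largest rises and 8 largest falls against matched keratinocytes, 8 and 8 against Epgn-positive cells, 10 and 10 for PBMC-sec and 5 each way for the interaction. They had to be past the threshold of 0.05, move the same way in every library or age and reach a mean of 100 CPM in the higher group, but the interaction had no condition on direction or level. From each list the most abundant and the most changed members were named, and further called members were added after their values were seen. The members, the gene lists and the tests were chosen with earlier results of these data known. Of the listed genes 1 was not analysed here. Some genes that met the naming rule are not reported here.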

Additional observations from a re-analysis of the deposited data

Results flagged for a closer look

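The effect of PBMC-sec differed between Nppb-positive and matched keratinocytes for 21 genes by the interaction term of edgeR, with 4 residual degrees of freedom. The difference of the log2 effects, members minus matched cells, was 1.28 for Itga7 and 1.08 for Arhgdib. It was -4.84 for Sdr9c7, -4.10 for Pdk4, -3.53 for Klk13, -3.43 for Trex2 and -2.82 for Sult2b1. Sdr9c7 was at 9.96, 14.0 and 9.41 CPM in untreated members at 8, 26 and 52 weeks and at 2.42, 2.61 and 7.10 CPM in treated ones, whereas matched cells went from 1.67, 1.76 and 2.46 CPM to 35.1, 8.14 and 26.7 CPM. These are few UMIs in the small untreated sets. Trex2 was at 144, 183 and 37.6 CPM in untreated members and at 50.8, 70.9 and 107 CPM in treated ones, so at 52 weeks it was higher after treatment there. In matched cells Trex2 went from 28.3, 45.7 and 36.8 CPM to 311, 133 and 339 CPM. The matched sets held more cells with Krt1 or Krt10 UMIs than the members. Without cells of at least 2 such UMIs 0 of the 7 genes above passed the threshold, and 1 of them, Sdr9c7, was not tested.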

How the results depend on the processing

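The test has 2 to 5 residual degrees of freedom, every condition is 1 library of pooled mice, and the untreated libraries held 36 to 85 members. In 931 values of 55 called or named genes against matched cells, 830 kept their side of the threshold, 101 lost it and 0 reversed. Against Epgn-positive cells it was 230 of 236, for PBMC-sec 266 of 298, and for the interaction 53 of 87. Thinning every cell to 1500 UMIs, which leaves fewer genes to test, gave 396 calls against matched cells, 228 against Epgn-positive cells, 36 for PBMC-sec and 35 for the interaction. Without cells of at least 2 Krt1 and Krt10 UMIs, an alternative chosen after seeing the data, the calls numbered 581, 141, 206 and 5. With the Epgn condition dropped, also chosen after seeing the data, PBMC-sec gave 1383 calls, the interaction 95 and the log2 ratio of shares 2.09. Depth was then not matched in the 26-week and 52-week treated libraries. Members had a median of 8075 and 10991 UMIs there, against 5720.5 and 5927 in comparison cells. The part of this gap in the interaction count was not tested. With no filter on low counts PBMC-sec gave 441 calls, age 125 and the interaction 268. Leaving age out of the model gave 76 for PBMC-sec. The interaction gave 34 calls with DESeq2, 41 without doublets, 41 with at least 3 Nppb UMIs and 101 with all comparison cells. The log2 ratio of shares was 2.18 without the clusters of low UMI dispersion, 2.63 at 3 Nppb UMIs, 1.82 at 1 UMI and 3.06 for Nppb CPM over keratinocytes. The cause of these shifts was not tested.

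Leaving out 1 library at a time gave 539 to 1300 calls against matched cells, lowest without the 26-week PBMC-sec library, and 703 to 1344 against Epgn-positive cells, again lowest without that library and at 855 without the 8-week PBMC-sec library. Leaving out 1 age at a time gave 106 to 232 calls for PBMC-sec, 8 for age and 9 to 40 for the interaction, lowest without the 8-week pair and highest without the 26-week pair. The log2 ratio of shares then ranged from 2.31 to 2.51.

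With no replicate block for the library, 381 genes were called against matched cells and 339 against Epgn-positive cells, all of them also called with the block. The labels give no replicate numbers. Treated and untreated libraries were paired by age in the ratio of shares and through the age covariate of the PBMC-sec model.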
